A study of Drosophila melanogaster with 12 samples.

Results

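The proteasome subunit genes comprised 30 of the 8802 genes in the deposited count table. They were taken by name, as every gene whose FlyBase identifier maps to a symbol that starts with Prosalpha, Prosbeta, Rpn or Rpt. By role the 30 were 6 genes of the outer ring of the core particle, 7 of its inner ring, 5 ATPases and 4 other subunits of the base of the regulatory particle, and 8 subunits of its lid. The annotation holds 48 such symbols, and 18 of them were not analysed here. These were Prosalpha1 and Rpt1, of the 32 constitutive subunits, and 16 duplicates with a T or R in their suffix. All 30 genes passed the filter on low counts and belonged to the 8069 genes tested. They were spread over the genome, with 4 on chromosome arm 2L, 8 on 2R, 5 on 3L, 9 on 3R and 4 on X.

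The proteasome is the protease complex that degrades proteins tagged with ubiquitin. Its core particle is a barrel of stacked rings, in which the alpha subunits of the outer rings gate the entry and the beta subunits of the inner rings carry the proteolytic sites. The regulatory particle caps the barrel: the Rpt ATPases of its base unfold the substrate and feed it into the core, and Rpn subunits bind ubiquitin, scaffold the particle or remove the ubiquitin chain. In Drosophila the proteasome also processes the transcription factor Shavenbaby, Svb, which is encoded by the ovo gene. Small peptides from the tal locus, also called pri, bring Svb to the ubiquitin ligase Ubr3, and the proteasome then trims the protein from a repressor to an activator.

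RNA was sequenced from enteroblasts, the progenitors that lie between intestinal stem cells and absorptive enterocytes, in 12 libraries of 4 genotypes with 3 biological replicates each, which the series' design text places on different calendar days. Every genotype carried the driver esg-Gal4 with UAS-GFP and tubGal80TS, a Gal80 repressor that is inactive at high temperature. The group RNAiSvb also carried the hairpin transgene UAS-SvbRNAi, SvbACT carried UAS-SvbACT::GFP, a constitutive activator, SvbREP carried UAS-Svb3Kmut::GFP, a constitutive repressor form, and Ctrl was the driver line crossed to the Canton-S strain with no further transgene. Flies were virgin females of 9 days, kept for 3 days at room temperature and then for 6 days at 29 °C to switch the transgenes on. Each sample pooled posterior midguts (regions R3 to R5) of a batch of flies, and cells of high GFP signal and large size were sorted. The escargot driver is known to be active in stem cells as well as enteroblasts, so the separation of enteroblasts from stem cells rests on the sort. SvbACT and SvbREP carried a GFP fusion besides UAS-GFP, and its part in the sort on GFP signal was not tested. Ctrl alone lacked any hairpin or Svb transgene, so that an effect of Svb and one of carrying a transgene cannot be told apart in the comparisons with it. In such bulk samples fewer cells of a type and less RNA per cell cannot be told apart.

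Libraries held 2186283 to 7444253 counts, of which the 30 genes took 0.167% to 0.300%, and the smallest count of any of them was 29, for Rpn12 in SvbREP replicate 3. That library was the shallowest and had 1013 genes without a count. The targeted gene ovo had 61.1, 20.7 and 15.4 CPM in the libraries labelled RNAiSvb, against 2.25, 16.3 and 0.279 CPM in Ctrl (log2 fold change 2.16 ± 0.83 SE, adjusted p = 0.179, edgeR's quasi-likelihood test). A lower transcript was thus not seen under the knockdown label. Hairpin reads could not be set apart from ovo reads in the table, and the label alone names these libraries here. CPM, the usual unit of counts relative to the library's total, was scaled between libraries by TMM (a method that removes differences in library composition). Of 8 progenitor markers 6 were in the table (esg and Dl were not analysed here). Their summed level was 2606 to 3686 CPM under RNAiSvb, 4910 to 6123 in SvbACT, 3035 to 3389 in SvbREP and 4564 to 5618 in Ctrl. The largest part was zfh2, with group means of 1171, 3234, 1366 and 2718 CPM in that order. Summed enterocyte markers, mainly Myo31DF, lay at 273 to 338, 387 to 635, 735 to 923 and 518 to 693 CPM in the same order of groups. That sum follows 1 gene. The median log2 fold change of the 7 enterocyte markers tested was -0.05 under RNAiSvb, 0.61 in SvbACT and -0.32 in SvbREP against Ctrl. Between SvbACT and SvbREP it was 1.62, opposite in sign to the difference in the sum. Enteroendocrine markers summed to 32.3 to 93.9, 6.18 to 32.5, 5.60 to 11.7 and 6.74 to 24.2 CPM, and visceral muscle markers to 4.45 to 8.15, 15.7 to 16.6, 5.16 to 10.7 and 15.5 to 39.5 CPM. The haemocyte marker Hml was at 0 in every library, haemocyte markers summed to at most 4.39 CPM and tracheal ones to at most 4.86 CPM, and markers of Malpighian tubule and germline were not analysed here. Of these lists, 3 progenitor genes (klu, Sox100B and zfh2) and Myo31DF were lower in libraries labelled RNAiSvb than in Ctrl (edgeR's test, adjusted over all genes). The other progenitor markers did not fall there. E(spl)malpha-BFM, E(spl)mbeta-HLH and Sox21a had log2 fold changes of 1.01, 0.12 and 0.15 (adjusted p = 0.057, 0.817 and 0.884, edgeR's test). In SvbREP zfh2 and the muscle gene Mhc were lower than in Ctrl, and in SvbACT the enteroendocrine gene NPF was higher than in Ctrl, where it was at 0. In SvbACT zfh2, NPF and the muscle gene wupA were higher and Myo31DF lower than in SvbREP, and no other marker was called in these 4 comparisons. In SvbREP the mean levels of NPF and wupA were only 0.05 and 0.09 CPM. Some markers move with the groups, in differing directions within a list, and their part in the proteasome values below was not tested.

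In levels per kilobase of exon, the subunit genes formed a narrow band in the upper part of the transcriptome. Over the 12 libraries their mean level ran from 24.5 CPM per kilobase for Rpn12 to 71.1 for Rpn1, a 2.91-fold range, with a median of 54.3. The median of all tested genes with a known length was 13.6 CPM per kilobase, and 29 of the 30 lay above their upper quartile of 31.0. By role, the median level was 58.1 CPM per kilobase in the outer ring, 53.2 in the inner ring, 45.1 in the base ATPases, 57.4 in the other base subunits and 55.6 in the lid. The lowest and highest genes were Prosalpha5 (34.7) and Prosalpha7 (62.4) in the outer ring, Prosbeta7 (33.9) and Prosbeta6 (70.0) in the inner ring, Rpt5 (33.5) and Rpt3 (56.0) among the ATPases, Rpn10 (38.8) and Rpn1 among the other base subunits, and Rpn12 and Rpn5 (67.1) in the lid. Exon lengths ran from 815 bases for Prosbeta4 to 3412 for Rpn2. In 12 of the 30 genes exons overlap a gene on the opposite strand, over 0.0615% of the exon length in Rpt5 and up to 13% in Rpt6 and 15.7% in Rpn9. No source used here says whether counting was by strand, and these levels are uncertain to that extent.

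**Figure D1:**
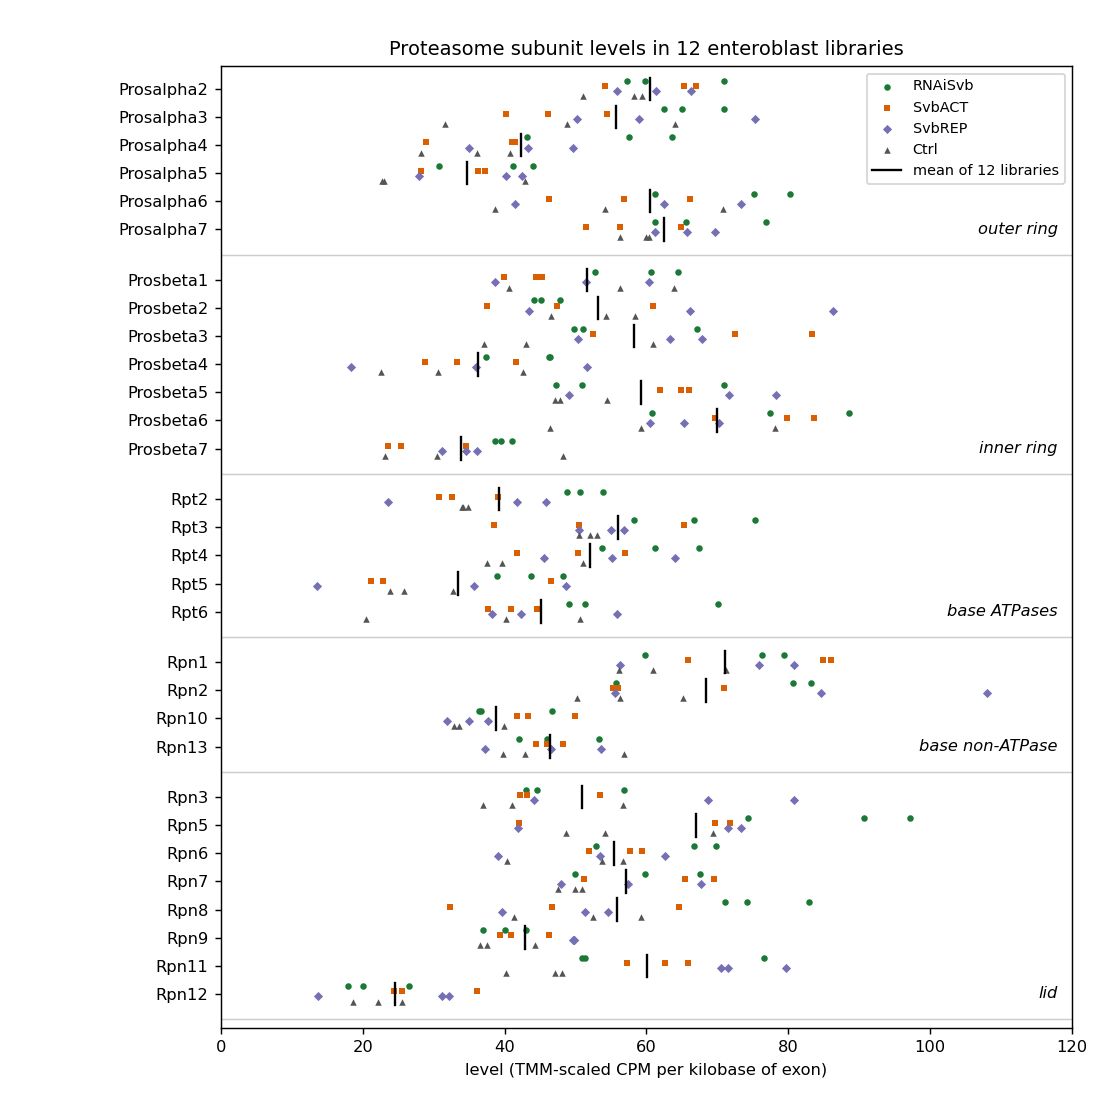
Level of each proteasome subunit gene (rows, grouped by role) in CPM per kilobase of exon on the horizontal axis, with 1 symbol per library and a black bar at the mean of the 12 libraries. Nearly all libraries of all genes lie between about 20 and 90 CPM per kilobase, and symbols of the 4 genotypes intermingle within most rows; Rpn12 is the lowest row at a mean of 24.5.

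Variation between replicates was moderate. The median biological coefficient of variation, edgeR's estimate of the spread between replicates beyond counting error, was 22% for the 30 genes, 30.5% for all tested genes and 23.4% for the 3172 tested genes whose mean level lay within the range of the 30. It ran from 17.7% in Rpn9 to 32.6% in Rpt5.

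Whether any subunit transcript differed between the genotypes was tested with edgeR's quasi-likelihood F test over all 12 libraries. The p-values were adjusted over the 8069 genes with the Benjamini-Hochberg method, at a threshold of 0.05. No subunit gene was called in any of 5 tests. In the test for a difference between any of the 4 groups, 0 of 30 passed while 14.7% of all tested genes did, and at an unadjusted p under 0.05 it was 2 of 30 (Rpn11 and Rpn8) against 27% of all genes. For libraries labelled RNAiSvb against Ctrl it was 0 of 30 against 8.5%, with 6 of 30 at an unadjusted p under 0.05 against 19%. All 6 were higher under RNAiSvb, as were 6.8% of all tested genes at that p, and of the 8.5% called after adjustment 1.85% were higher and 6.66% lower. SvbACT against Ctrl gave 0 against 4.46%, with 2 of 30 at an unadjusted p under 0.05 against 17%. Both were higher in SvbACT, against 7.32% of all genes, and 1.91% of all genes were called higher and 2.55% lower. SvbREP against Ctrl gave 0 against 2.08%, with 3 of 30 at an unadjusted p under 0.05 against 12.9%. These 3 were higher in SvbREP, against 5.33% of all genes, and 0.731% of all genes were called higher and 1.35% lower. SvbACT against SvbREP gave 0 against 7.21%, with 0 of 30 at an unadjusted p under 0.05 against 19.3%. Here 9.32% of all genes were higher in SvbACT at that p, and 3.53% were called higher and 3.68% lower. Among the 3172 genes of like level, 17.3%, 10.9%, 5.39%, 2.3% and 8.73% were called in these 5 tests. DESeq2 called 1 gene, Rpn11, in the any-group test and in SvbREP against Ctrl, and 0 in the other 3 tests. edgeR's likelihood ratio test called 0 in all 5. With only the 6 compared libraries in the fit, 4 genes were called in RNAiSvb against Ctrl (Rpn5, Rpn8, Rpt2 and Rpt5), where 1091 rather than 686 genes passed. Without SvbREP replicate 3, Rpt2 was called in the any-group test.

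The 95% intervals show how precisely each difference was estimated, gene by gene and without adjustment for their number. All 120 log2 fold changes (30 genes in 4 comparisons) lay between -1 and 1, where 17%, 16.6%, 13.2% and 17.7% of all tested genes lay outside in RNAiSvb, SvbACT and SvbREP against Ctrl and in SvbACT against SvbREP. The 95% interval lay wholly inside -1 to 1 for 22, 28, 26 and 30 of the 30 genes. The same held for 36.8%, 40.3%, 42.5% and 38.6% of all tested genes, and for 63.4%, 70.2%, 73.5% and 67% of the genes of like level. In the 14 remaining intervals the bound beyond 1 was the upper one, at most 1.47 (Rpt5, RNAiSvb against Ctrl). The median half-width of an interval was about 0.51 on the log2 scale (0.505 in RNAiSvb against Ctrl). The highest group mean stood over the lowest by a median of 0.45 and at most 0.72 (Rpn8) on the log2 CPM scale. It passed 1 in 0 of 30 genes and in 37.6% of all tested genes. The 30 genes have a higher median level than all tested genes (5.98 against 4.59 log2 CPM). For this spread and for fold changes past 1, no share among genes of like level is given here.

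**Figure D2:**
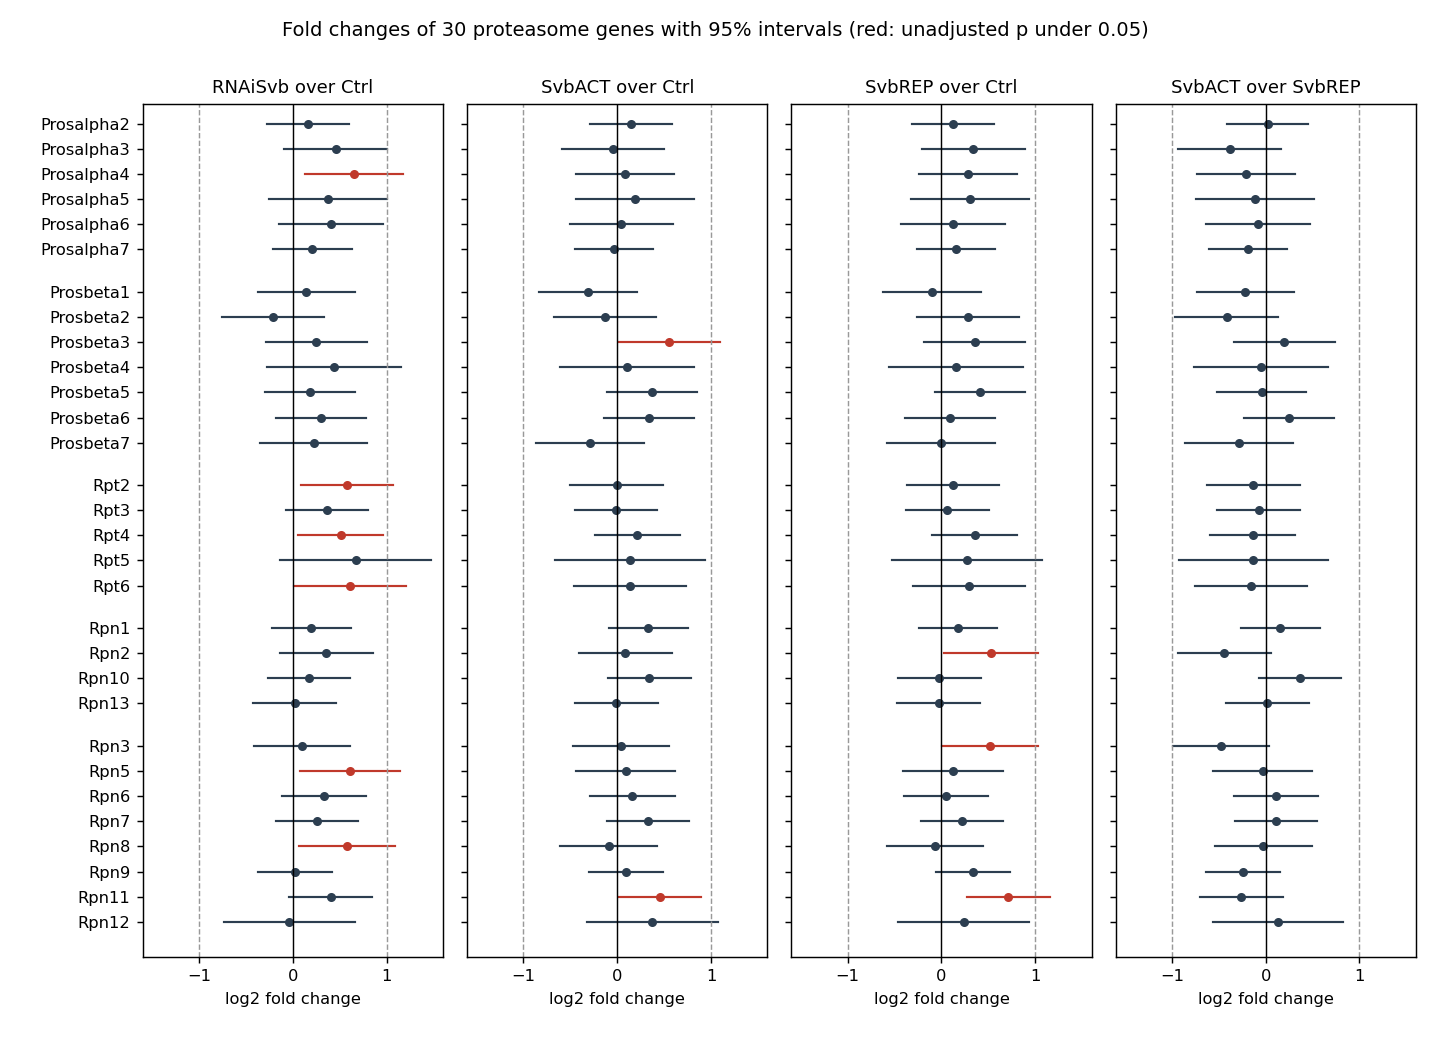
Log2 fold change (point) and 95% interval (bar) of each of the 30 genes in 4 comparisons, with the genes in rows grouped by role, a solid line at 0 and dashed lines at -1 and 1. Red marks the 11 of 120 values with an unadjusted p under 0.05; none passed after adjustment over all 8069 genes, and points lie mostly right of 0 in RNAiSvb over Ctrl.

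Below the threshold, most subunit genes had estimates above 0 against Ctrl. In libraries labelled RNAiSvb 28 of 30 log2 fold changes were above 0, with a median of 0.31, against 51.8% of all tested genes with a median of 0.02. SvbACT had 21 of 30 above 0 and a median of 0.10, against 49.5% and -0.01 for all genes. SvbREP had 25 of 30 above 0 and a median of 0.20, against 48.4% and -0.02. Between SvbACT and SvbREP 9 of 30 were above 0 with a median of -0.10, against 51.1% and 0.01. The first 3 comparisons share the Ctrl libraries, and single libraries weighed on the size. Without Ctrl replicate 2 the medians in RNAiSvb, SvbACT and SvbREP were 0.48, 0.28 and 0.39, with 29, 28 and 30 of 30 above 0. Without Ctrl replicate 3 they were 0.24, 0.0499 and 0.15, with 29, 17 and 21 above 0. Between SvbACT and SvbREP the median was -0.24 without SvbACT replicate 1, -0.21 without SvbREP replicate 3, -0.06 without SvbACT replicate 2 and -0.06 without SvbREP replicate 2. Scaling by library totals alone moved the median of all genes by 0.13 in RNAiSvb and 0.11 in SvbREP against Ctrl, and relative to that median the 30 genes stood at 0.29 and 0.21, as with TMM (0.29 and 0.22). The 30 values come from the same 12 libraries and are not independent, and no test of the list was made. Group means were highest under RNAiSvb for 18 genes, in SvbACT for 6, in SvbREP for 6 and in Ctrl for 0, and they were lowest in Ctrl for 20. Such counts over all tested genes are not given here, so these are not set against a background. Ctrl replicates 1 and 3 held the lowest single value of 6 and 10 genes.

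**Figure D3:**
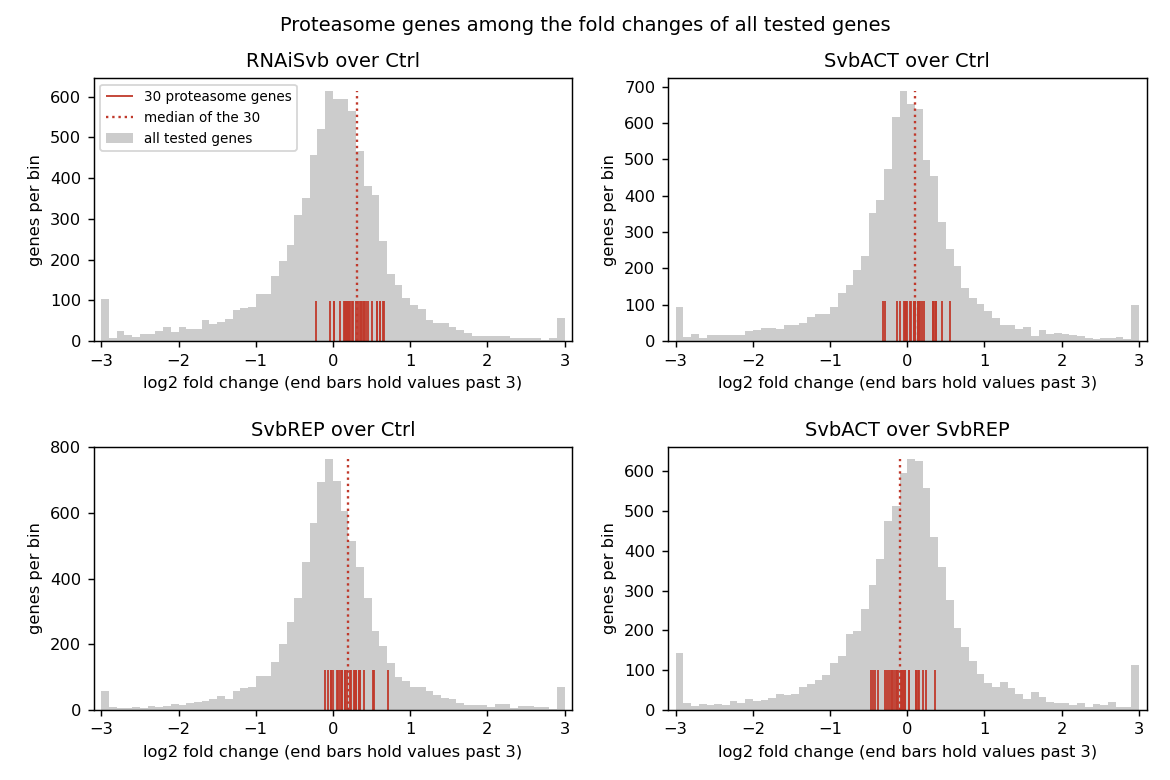
Histograms of the log2 fold changes of the 8069 tested genes (grey, genes per bin of the horizontal axis, end bars holding values past 3) with the 30 proteasome genes as red ticks and their median as a dotted line, for the 4 comparisons. The red ticks stay within -1 to 1 in each panel; their median is 0.31 in RNAiSvb over Ctrl, where all genes have 0.02, and -0.10 in SvbACT over SvbREP.

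The outer ring subunits, which gate the core, had 6 of 6 estimates above 0 under RNAiSvb (median 0.39), 4 of 6 in SvbACT (0.06) and 6 of 6 in SvbREP (0.22) against Ctrl, with 0 called. Prosalpha4 had 50.8, 74.7 and 67.7 CPM in the libraries labelled RNAiSvb, 48.7, 34.0 and 48.3 in SvbACT, 50.9, 58.3 and 41.1 in SvbREP and 42.4, 47.9 and 33.2 in Ctrl. All 3 libraries labelled RNAiSvb lay above the 3 of Ctrl, with a log2 fold change of 0.64 ± 0.25 SE (95% interval 0.12 to 1.17, adjusted p = 0.14 in edgeR's test). This absence of overlap, higher under RNAiSvb, held for 9 of the 30 genes against 13.9% of all tested genes. Prosalpha3 had 63.3, 69.0 and 60.8 CPM in the libraries labelled RNAiSvb, 39.1, 53.0 and 44.9 in SvbACT, 48.9, 57.3 and 73.3 in SvbREP and 47.4, 62.3 and 30.7 in Ctrl. Its Ctrl libraries span the widest range of the 4 groups and overlap each of the others, and its log2 fold change under RNAiSvb was 0.45 ± 0.26 (adjusted p = 0.383).

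Prosalpha7, the ring's most abundant transcript per kilobase, had 63.9, 75.1 and 59.7 CPM in the libraries labelled RNAiSvb, 63.3, 54.9 and 50.2 in SvbACT, 64.1, 67.9 and 59.8 in SvbREP and 58.9, 58.5 and 55.0 in Ctrl. The RNAiSvb and SvbREP libraries lay just above those of Ctrl, by 0.21 ± 0.20 and 0.16 ± 0.20 on the log2 scale (adjusted p = 0.669 and 0.839). Prosalpha5, the ring's least abundant transcript, had 38.9, 41.6 and 29.1 CPM in the libraries labelled RNAiSvb, 26.7, 34.2 and 35.2 in SvbACT, 26.4, 38.0 and 40.2 in SvbREP and 21.5, 40.5 and 21.8 in Ctrl. Ctrl replicate 2 stood at about the level of the transgenic libraries and the other Ctrl libraries below all of them, and the log2 fold change under RNAiSvb was 0.38 ± 0.30 (adjusted p = 0.579). Prosalpha2 and Prosalpha6 had log2 fold changes under RNAiSvb of 0.16 and 0.40, and neither was called.

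In the inner ring, Prosbeta1, Prosbeta2 and Prosbeta5 correspond to the catalytic subunits known from yeast and mammals, and the others are structural. Estimates above 0 numbered 6 of 7 under RNAiSvb (median 0.22), 4 of 7 in SvbACT (0.11) and 5 of 7 in SvbREP (0.16) against Ctrl, with 0 called. Prosbeta3 had 45.5, 61.3 and 46.7 CPM in the libraries labelled RNAiSvb, 66.2, 48.0 and 76.1 in SvbACT, 46.0, 62.0 and 57.9 in SvbREP and 33.9, 55.7 and 39.3 in Ctrl. Its SvbACT libraries overlap Ctrl replicate 2, and the log2 fold change was 0.56 ± 0.25 (95% interval 0.02 to 1.09, adjusted p = 0.275). Of the catalytic subunits, Prosbeta5 had 58.0, 80.8 and 53.9 CPM in the libraries labelled RNAiSvb, 75.2, 70.6 and 73.9 in SvbACT, 55.9, 81.6 and 89.2 in SvbREP and 54.4, 62.0 and 53.6 in Ctrl. The SvbACT libraries lay above Ctrl by 0.37 ± 0.23 (adjusted p = 0.467), 1 of 4 genes whose SvbACT libraries were apart from and above Ctrl, against 10.2% of all tested genes. Prosbeta2 held the lowest estimate under RNAiSvb, -0.22 ± 0.26, and Prosbeta1 the lowest in SvbACT, -0.31 ± 0.25, and in SvbREP, -0.10 ± 0.25, with adjusted p of 0.747, 0.597 and 0.938.

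The most and the least abundant inner ring transcripts per kilobase are both structural subunits. Prosbeta6 had 73.0, 83.6 and 57.4 CPM in the libraries labelled RNAiSvb, 65.7, 78.9 and 75.4 in SvbACT, 57.1, 66.3 and 61.6 in SvbREP and 55.9, 73.7 and 43.8 in Ctrl. Prosbeta7 had 48.0, 49.8 and 47.03 CPM in the libraries labelled RNAiSvb, 42.1, 30.9 and 28.6 in SvbACT, 41.9, 44.0 and 37.8 in SvbREP and 36.9, 58.6 and 28.2 in Ctrl. In both genes Ctrl replicate 2 stood above the other Ctrl libraries and among or above those of the transgenic groups. Under RNAiSvb their log2 fold changes were 0.30 ± 0.23 and 0.22 ± 0.27 (adjusted p = 0.559 and 0.756).

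The 5 base ATPases, which drive unfolding, had the largest median log2 fold change of the 5 roles under RNAiSvb: all 5 estimates were above 0, with a median of 0.57, against 0.14 in SvbACT and 0.27 in SvbREP. None was called. Rpt2 had 79.3, 82.3 and 87.5 CPM in the libraries labelled RNAiSvb, 63.6, 49.9 and 53.0 in SvbACT, 67.9, 74.4 and 38.3 in SvbREP and 55.2, 56.7 and 55.5 in Ctrl. Its RNAiSvb libraries lay well above the Ctrl libraries, which differed little among themselves, and its log2 fold change was 0.57 ± 0.23 (95% interval 0.08 to 1.07, adjusted p = 0.172). Rpt4 had 89.7, 98.7 and 78.8 CPM in the libraries labelled RNAiSvb, 83.5, 61.1 and 73.7 in SvbACT, 66.7, 80.7 and 93.9 in SvbREP and 54.9, 74.7 and 58.0 in Ctrl, with no overlap between RNAiSvb and Ctrl. Its log2 fold change between them was 0.51 ± 0.21 (adjusted p = 0.191).

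Rpt5, whose C-terminal tail docks into the outer ring in yeast, had 63.3, 71.1 and 78.5 CPM in the libraries labelled RNAiSvb, 75.7, 34.5 and 37.1 in SvbACT, 79.3, 58.0 and 21.9 in SvbREP and 41.9, 53.2 and 38.8 in Ctrl. It was lowest in SvbREP replicate 3, at 1.07 below its group mean on the log2 scale, and was the most variable of the 30 genes. Its RNAiSvb libraries did not overlap those of Ctrl, and the log2 fold change of 0.67 ± 0.38 was the largest of that comparison with an adjusted p of 0.381. Rpt6 had 72.1, 68.8 and 98.5 CPM in the libraries labelled RNAiSvb, 62.6, 57.5 and 52.8 in SvbACT, 78.5, 59.5 and 53.7 in SvbREP and 56.4, 71.1 and 28.7 in Ctrl. Ctrl replicate 3 was its lowest library. The log2 fold change under RNAiSvb was 0.61 ± 0.28 (adjusted p = 0.247), 0.36 without Ctrl replicate 3 and 0.96 without Ctrl replicate 2. Rpt3, the most abundant ATPase transcript per kilobase, had 117, 90.5 and 104 CPM in the libraries labelled RNAiSvb, 78.3, 59.9 and 101 in SvbACT, 78.5, 85.5 and 88.3 in SvbREP and 82.4, 80.8 and 78.4 in Ctrl. Its 3 RNAiSvb libraries lay above the closely spaced Ctrl libraries, by 0.36 ± 0.21 (adjusted p = 0.39).

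The other base subunits are Rpn1, which docks ubiquitin shuttle factors, the scaffold Rpn2, and the ubiquitin receptors Rpn10 and Rpn13. Their median log2 fold changes against Ctrl were 0.18 under RNAiSvb, 0.21 in SvbACT and 0.08 in SvbREP, with 0 called. Rpn2 had 275, 284 and 190.0 CPM in the libraries labelled RNAiSvb, 189, 191 and 242 in SvbACT, 189.7, 289 and 368 in SvbREP and 171, 192 and 222 in Ctrl. SvbREP replicate 3 was the highest library and SvbREP replicate 1 lay among those of Ctrl; the log2 fold change of SvbREP was 0.53 ± 0.24 (95% interval 0.03 to 1.03, adjusted p = 0.349), 0.34 without SvbREP replicate 3 and 0.79 without SvbREP replicate 1. Rpn1 had 241, 232 and 182 CPM in the libraries labelled RNAiSvb, 200.4, 258 and 262 in SvbACT, 171, 231 and 246 in SvbREP and 185, 216 and 170.5 in Ctrl. The groups overlap, and its largest estimate was that of SvbACT, 0.33 ± 0.20 (adjusted p = 0.455).

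Rpn10, the least abundant of these transcripts per kilobase, had 51.7, 66.4 and 52.1 CPM in the libraries labelled RNAiSvb, 59.5, 61.5 and 71.0 in SvbACT, 49.8, 53.5 and 45.3 in SvbREP and 46.7, 56.8 and 47.7 in Ctrl. Its SvbACT libraries lay above those of SvbREP, by 0.37 ± 0.21 (adjusted p = 0.375), and above those of Ctrl, by 0.34 ± 0.21 (adjusted p = 0.462). It was the 1 gene of 30 whose SvbACT libraries were apart from and above those of SvbREP, against 10.7% of all tested genes. Rpn13 was close to even in every comparison, with log2 fold changes of 0.02 under RNAiSvb, -0.01 in SvbACT and -0.03 in SvbREP and 95% intervals that all lay between -0.47 and 0.46.

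In the lid, Rpn11 is the deubiquitinase that cuts the chain off the substrate, Rpn8 is its inactive partner, and the other subunits form a scaffold around them. Rpn11 had the smallest p of the 30 genes in the any-group test (0.0278, adjusted p = 0.127, edgeR's test). It had 62.1, 92.4 and 61.5 CPM in the libraries labelled RNAiSvb, 79.5, 75.6 and 69.1 in SvbACT, 85.2, 96.2 and 86.4 in SvbREP and 58.2, 56.8 and 48.6 in Ctrl. All SvbREP and SvbACT libraries lay above all Ctrl libraries, and the libraries labelled RNAiSvb did as well. The log2 fold change was 0.71 ± 0.21 for SvbREP (95% interval 0.27 to 1.15, adjusted p = 0.0987), 0.45 ± 0.21 for SvbACT (adjusted p = 0.277) and 0.40 ± 0.21 for RNAiSvb (adjusted p = 0.32), all in edgeR's test. An alternative edgeR fit added a term for the replicate number, although it is not stated whether these numbers are shared between groups. Deviations of same-numbered SvbREP and Ctrl libraries correlated only weakly (0.175, 0.108 and 0.256), which does not settle it. For SvbREP against Ctrl that fit called 290 genes, where the main fit called 168. The 290 included 0 of the 30, and Rpn11 had an adjusted p of 0.0585. DESeq2 gave it an adjusted p of 0.0246. Over all settings tried its adjusted p in this comparison ran from 0.0246 to 0.345.

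The authors' deposited table gave Rpn11 a log2 fold change of 0.77 and a p of 0.00153 for SvbREP over Ctrl and called it higher. That was the only call among 150 for the 30 genes in the 5 comparisons of the authors' deposited table. In SvbREP over Ctrl 3.36% of its 8802 genes were called, and 1 of 30 is close to that share. The share was 6.53% in SvbACT over Ctrl, 9.41% in RNAiSvb over Ctrl, 9.15% in SvbACT over SvbREP and 10.7% in SvbACT over RNAiSvb. In each of these 0 of the 30 were called. Rpn11 lies on chromosome 2L from 5058404 to 5059790 on the minus strand of BDGP6.54, with no exon overlap with another gene.

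Rpn8 had 127, 114 and 109 CPM in the libraries labelled RNAiSvb, 98.9, 49.4 and 71.6 in SvbACT, 83.5, 78.7 and 60.7 in SvbREP and 80.4, 90.8 and 63.3 in Ctrl. The RNAiSvb libraries lay above every other library of the study, by 0.57 ± 0.24 over Ctrl on the log2 scale (95% interval 0.06 to 1.09, adjusted p = 0.193), while SvbACT and SvbREP were at -0.09 ± 0.24 and -0.07 ± 0.24. Rpn5 had 141, 172 and 184 CPM in the libraries labelled RNAiSvb, 136, 79.6 and 132 in SvbACT, 136, 139 and 79.4 in SvbREP and 92.4, 132 and 103 in Ctrl. Its RNAiSvb libraries also lay above every other library, with a log2 fold change over Ctrl of 0.61 ± 0.25 (adjusted p = 0.18). Rpn3 had 81.5, 104 and 78.6 CPM in the libraries labelled RNAiSvb, 79.0, 77.2 and 97.9 in SvbACT, 80.8, 126 and 148 in SvbREP and 75.1, 104 and 67.5 in Ctrl. It was high in SvbREP replicates 2 and 3 but not in replicate 1, and its log2 fold change in SvbREP over Ctrl was 0.52 ± 0.24 (adjusted p = 0.382), 0.37 without SvbREP replicate 3 and 0.77 without SvbREP replicate 1.

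Rpn9, the gene with the lowest coefficient of variation, had 62.1, 72.3 and 67.2 CPM in the libraries labelled RNAiSvb, 77.7, 68.7 and 66.1 in SvbACT, 83.7, 83.4 and 83.6 in SvbREP and 61.4, 74.3 and 63.1 in Ctrl. Its SvbREP libraries lay above those of Ctrl by 0.33 ± 0.19 (adjusted p = 0.501), 1 of 3 genes with that pattern against 7.18% of all tested genes, and above those of SvbACT, as 2 of 30 genes did against 10.1%. The opposite-strand overlap of 15.7% of its exon length limits this value. Rpn12, the least abundant of the 30 transcripts per kilobase, had 17.9, 26.4 and 19.9 CPM in the libraries labelled RNAiSvb, 35.9, 24.2 and 25.4 in SvbACT, 32.0, 31.1 and 13.5 in SvbREP and 18.5, 25.4 and 22.0 in Ctrl. Its groups overlap, and its log2 fold changes against Ctrl were -0.04 under RNAiSvb, 0.37 in SvbACT and 0.24 in SvbREP. Rpn7 had SvbACT libraries above those of Ctrl, by 0.33 ± 0.21 (adjusted p = 0.481), and Rpn6 was not called in any comparison. The lid as a whole had median log2 fold changes of 0.29, 0.13 and 0.23 in RNAiSvb, SvbACT and SvbREP against Ctrl.

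**Figure D4:**
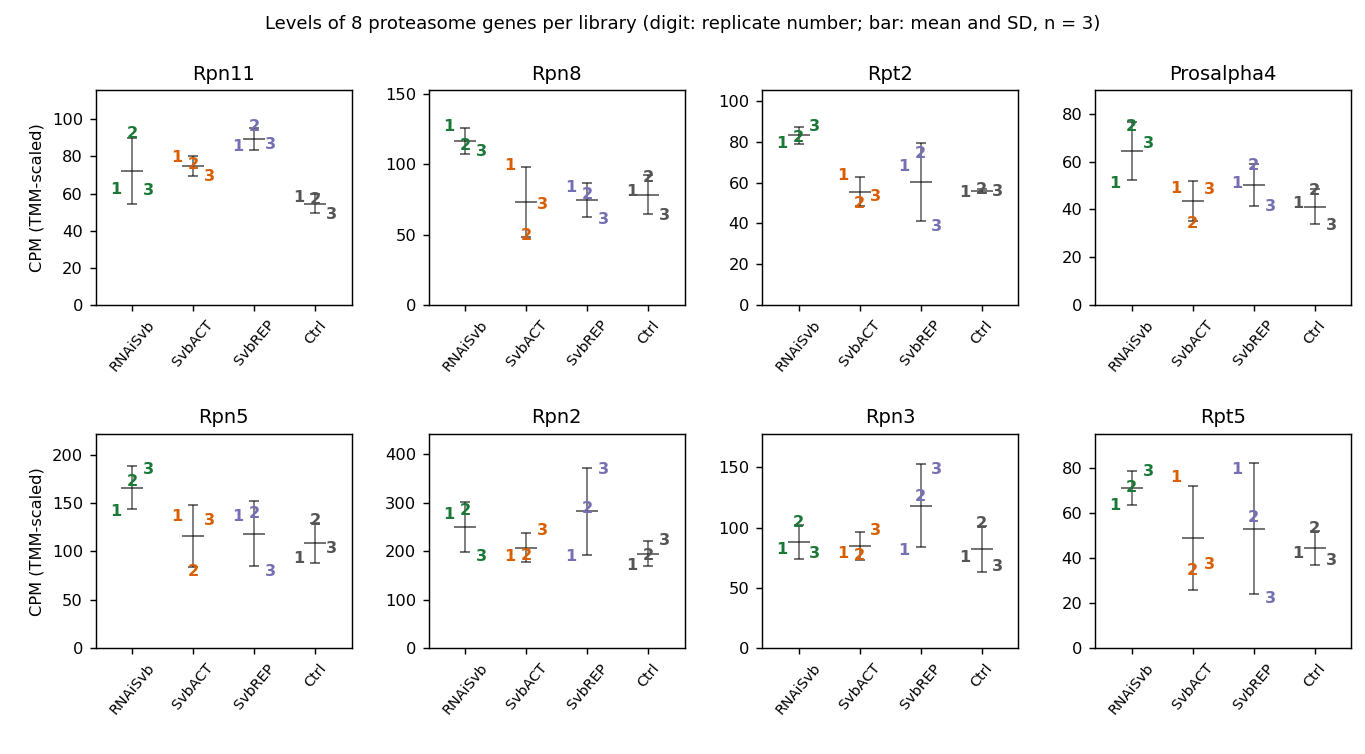
Level in TMM-scaled CPM of 8 proteasome genes in each library, with the replicate number as the plotting symbol and bars for mean and SD of 3 libraries per group. The axes start at 0; Rpn11 is lowest in the 3 Ctrl libraries (48.6 to 58.2 CPM), Rpn8, Rpt2 and Rpn5 are highest in the 3 libraries labelled RNAiSvb, and Rpt5 and Rpn2 spread widely in SvbREP.

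Summed over the 30 genes, the level was 2422, 2713 and 2367 CPM in the libraries labelled RNAiSvb, 2253, 2082 and 2270.2 CPM in SvbACT, 2162, 2511 and 2397 CPM in SvbREP and 1902, 2291 and 1798 CPM in Ctrl. RNAiSvb libraries lay above those of Ctrl, whose replicate 2 stood apart from the other 2, and SvbACT and SvbREP overlapped Ctrl at that replicate. The ratio of the group means to Ctrl was 1.25 for RNAiSvb, 1.10 for SvbACT and 1.18 for SvbREP, and with scaling by library totals alone it was 1.37, 1.11 and 1.27. No test was made of a sum over genes chosen with results known.

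By group mean the lid, the role with the most genes (8), held the largest share of the summed level in every genotype. These sums were not divided by exon length. Per kilobase the lid's median level of 55.6 CPM was below that of the outer ring, 58.1. The lid held 29.5% ± 1.96 under RNAiSvb, 29.2% ± 1.19 in SvbACT, 29.4% ± 2.55 in SvbREP and 29% ± 0.306 in Ctrl (SD, n = 3 each). The base subunits other than ATPases, with 4 genes, held 24.1% ± 2.9, 26.8% ± 2.86, 26.3% ± 4.67 and 25.9% ± 2.25 in the same order. They held more than the lid in SvbACT replicate 2 (28.3% against 27.9%) and SvbREP replicate 3 (31.2% against 26.8%). The outer ring held 14.6% ± 0.737, 13.4% ± 1.1, 14% ± 0.666 and 14.2% ± 0.945 in the same order of groups. The base ATPases held 17.2% ± 1.86 under RNAiSvb, against 14.8% ± 0.458 in Ctrl, and their ranges, 15.2% to 18.9% and 14.4% to 15.3%, overlapped. ATPase levels summed to 427 ± 18.3 CPM under RNAiSvb, 315 ± 50.5 in SvbACT, 342 ± 40.0 in SvbREP and 296 ± 38.7 in Ctrl, with the RNAiSvb libraries above all others.

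**Figure D5:**
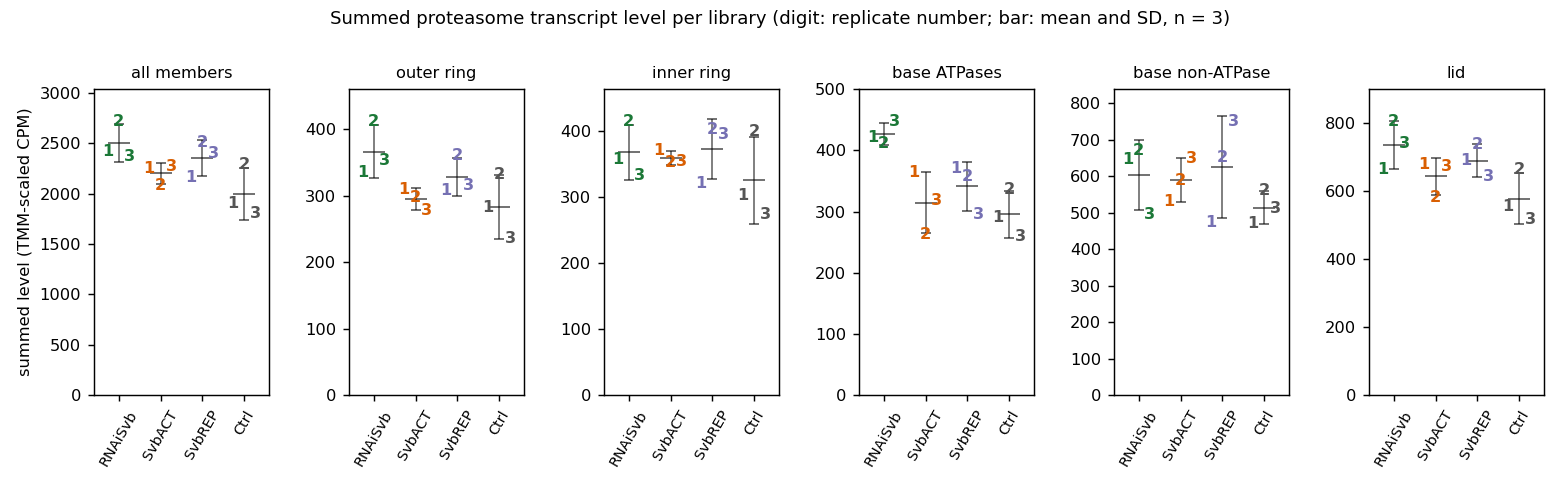
Summed TMM-scaled CPM of the 30 genes and of each role per library, with the replicate number as the symbol and bars for mean and SD (n = 3); all axes start at 0. The libraries labelled RNAiSvb lie above all others for the base ATPases (411 to 447 CPM), while Ctrl replicate 2 reaches the transgenic groups in most panels.

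Libraries differed in how far the subunit genes varied from each other. The SD over the 30 genes of their deviation from the group mean was 0.39 on the log2 scale in SvbREP replicate 3 and 0.33 in SvbREP replicate 1, and 0.12 to 0.23 in the other 10 libraries. SvbREP replicate 3 held the lowest value of 7 genes and the highest of 5, and Ctrl replicates 1 and 3 held the lowest of 6 and 10. The smallest SD, 0.12, was that of SvbREP replicate 2. Over all tested genes this SD was 0.53, 0.46 and 0.73 in SvbREP replicates 1, 2 and 3, against 0.56, 0.66 and 0.65 in those of SvbACT.

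Between SvbACT and SvbREP, which carry opposite forms of Svb and do not involve Ctrl, the lowest estimates were those of Rpn3, -0.47 ± 0.24 (95% interval -0.99 to 0.04, adjusted p = 0.307), and Rpn2, -0.44 ± 0.24 (adjusted p = 0.332). Both genes were high in SvbREP replicate 3. Rpn11 stood at -0.26 ± 0.21 (adjusted p = 0.577), with its 3 SvbACT libraries below its 3 SvbREP libraries. By role the median log2 fold change was -0.15 in the outer ring, -0.05 in the inner ring, -0.13 in the base ATPases, 0.09 in the other base subunits and -0.03 in the lid.

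Of 37 other genes of the pathway, 32 were tested, and ntc, TER94, CSN1a, tal and Ngly1 were not analysed here. These were regulators and assembly factors, the processing route of Svb, transcriptional control, ubiquitin genes, shuttle factors and the signalosome, a complex paralogous to the lid. Under RNAiSvb 1 of 32 was higher and 0 lower. In SvbACT and in SvbREP only ovo was called, higher in both. Their transgenes express this gene, so that call follows from the design. Between SvbACT and SvbREP 0 were called. Of all tested genes 8.5%, 4.46%, 2.08% and 7.21% were called in these comparisons, and 1.85%, 1.91%, 0.731% and 3.53% were called higher. The median log2 fold changes were 0.17, 0.09, 0.01 and 0.10. The level of ovo, which counts transgene and endogenous reads together, was 2005, 2037 and 2604 CPM in SvbACT and 1111, 1438 and 1751 CPM in SvbREP, against 2.25, 16.3 and 0.279 CPM in Ctrl. All SvbACT and SvbREP libraries were far above those of Ctrl. Its log2 fold change over Ctrl was 8.29 in SvbACT and 7.66 in SvbREP (adjusted p = 0.00111 and 0.00381, edgeR's test), and 10.73 and 10.11 without Ctrl replicate 2, so the size rests on the low Ctrl values.

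The gene that rose under RNAiSvb was PI31, a conserved binding partner and regulator of the core particle. It had 37.9, 38.7 and 37.7 CPM in the libraries labelled RNAiSvb, 23.7, 26.6 and 31.2 in SvbACT, 17.9, 20.1 and 25.7 in SvbREP and 20.5, 21.4 and 19.5 in Ctrl. The libraries labelled RNAiSvb were above all others, and the log2 fold change over Ctrl was 0.89 ± 0.25 SE (adjusted p = 0.0357, edgeR's test). Without any 1 of the 6 libraries compared the call was lost, with adjusted p from 0.0718 to 0.119 and log2 fold changes from 0.90 to 0.98. The 6 regulators and assembly factors tested had a median log2 fold change of 0.91 under RNAiSvb, against 0.02 for all tested genes. Of the 6, which include the lid subunit Sem1, only PI31 was called, and no test of this list was made. Their estimates ran from 0.25 ± 0.19 SE for REG to 1.39 ± 0.52 SE for Sem1. Pomp, which matures the core, had 49.4 ± 3.89 CPM under RNAiSvb and 25.8 ± 5.08 CPM in Ctrl (adjusted p = 0.435), and Sem1, a small lid subunit outside the naming rule, had 39.5 ± 18.5 and 15.0 ± 8.40 CPM (adjusted p = 0.138).

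The gene cnc encodes the transcription factor known to induce proteasome genes in flies. It had 519 ± 46.5 CPM under RNAiSvb, 593 ± 56.5 in SvbACT, 567 ± 34.5 in SvbREP and 649 ± 29.8 in Ctrl, with log2 fold changes of -0.32, -0.13 and -0.19 against Ctrl (adjusted p = 0.319, 0.794 and 0.716). Ubr3, the ligase for Svb, had 333 ± 54.2, 303 ± 24.7, 349 ± 60.1 and 298 ± 29.3 CPM in the same order and was not called either. Of the 5 transcriptional control genes, 5 ubiquitin genes, 5 shuttle factors and 8 signalosome genes tested, 0 were called in any of the 4 comparisons, where 8.5%, 4.46%, 2.08% and 7.21% of all tested genes were.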

How the data were processed

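RNA from sorted enteroblasts was read as 100 nt single reads from Ovation SoLo libraries, per the labels' protocols. FastQC 0.11.5, STAR 2.5.2b, HTSeq 0.6.0, edgeR and build dm6 are named in the submitters' processing notes; strand setting, annotation release and filter are not given in the sources used here. The authors deposited raw counts per gene, and, per the file headers, log2 fold changes, p-values and a call score (1, 0 or -1) for 5 comparisons. No column was left unmapped.

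From the counts, symbols and exon lengths were taken from BDGP6.54 (Ensembl release 115; 8686 of 8802 identifiers matched). Genes were filtered with filterByExpr, scaled with TMM and fitted over 12 libraries with edgeR 4.0.16 (R 4.3.3, limma 3.58.1, glmQLFit and glmQLFTest), with p-values adjusted by Benjamini-Hochberg over 8069 genes; DESeq2 1.42.0 was an alternative. Scripts were tested on simulated data. Floors of 3 counts corresponded to 0.379 to 1.4 CPM and cover counting error only.

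Values in every sample are given for called proteasome and pathway genes, the 10 proteasome genes of smallest any-group p, and the highest and lowest per kilobase in each role; Prosbeta3, Prosbeta5 and Rpn9 were added after their values were seen. Members and lists were chosen with earlier results of these data known. Same-numbered SvbREP and Ctrl libraries deviated from their group means with correlations of 0.175, 0.108 and 0.256 over genes (mean 0.18). The mean was 0.147 in RNAiSvb and 0.066 in SvbACT against Ctrl, and 0.138 in SvbACT against SvbREP. In each of these at least 1 pair was under 0.1. Whether replicate numbers are shared between groups is not stated, and these weak correlations do not settle it. The main tests and intervals were therefore unpaired, with the replicate block as an alternative. The tests measure the spread between 3 replicates.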

Additional observations from a re-analysis of the deposited data

How the results depend on the processing

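Of 20 alternative settings, 3 gave a proteasome call in 1 or more comparisons: DESeq2, a fit of only the compared groups, and leaving out SvbREP replicate 3. Alternatives for single genes were run for the 11 values with an unadjusted p under 0.05, which lie away from 0 by that choice; 4 of these 154 alternatives were called and 0 changed sign. Over all 30 genes signs did turn, and leaving out 1 library left 27 to 29 above 0 in RNAiSvb, 17 to 28 in SvbACT and 21 to 30 in SvbREP against Ctrl, and 6 to 14 in SvbACT against SvbREP. DESeq2 called 612 genes in SvbACT and 317 in SvbREP against Ctrl, with 1 proteasome gene (Rpn11) in SvbREP and 1 in the any-group test. With only the compared groups in the fit, 1091 genes and 4 proteasome genes were called in RNAiSvb against Ctrl, and 340 genes in SvbACT against SvbREP. With the replicate block, 290 genes were called in SvbREP against Ctrl, and no proteasome call changed. A likelihood ratio test, chosen after seeing the data, called 599 and 310 genes in SvbACT and SvbREP against Ctrl. The cause of these changes was not tested.

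Leaving out 1 library gave 407 to 549 genes for RNAiSvb, 175 to 279 for SvbACT and 54 to 242 for SvbREP against Ctrl, 355 to 599 for SvbACT against SvbREP and 885 to 1357 for any group. Counts moved by over 1.5 times without RNAiSvb replicate 3 (435) or Ctrl replicate 3 (407) in RNAiSvb, without SvbACT replicate 2 (227) or Ctrl replicates 1, 2 and 3 (175, 208 and 185) in SvbACT, without SvbREP replicate 2 (67) or Ctrl replicates 1 and 3 (54 and 76) in SvbREP, and without SvbREP replicate 2 (355) in SvbACT against SvbREP. Proteasome calls numbered 0 to 0 in the 4 pairwise comparisons and 0 to 1 for any group. Their median log2 fold change ran from 0.23 to 0.48, 0.0499 to 0.28, 0.15 to 0.39 and -0.24 to -0.06. The median half-width of the genes' 95% intervals, about 0.51 on the log2 scale, limits the precision.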
